A study of Mus musculus with 31 samples.

Results

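The genes described here are 9 enzymes that make serine, one-carbon units, asparagine, proline and cysteine: Psat1, Phgdh, Psph, Shmt2, Mthfd2, Asns, Aldh18a1, Pycr1 and Cth. Each was represented by the probe set that the array annotation assigned to that gene alone, with the highest mean over all arrays where a gene had several. Of the 9 genes, 7 had such a probe set, among 17097 genes measured. Both Mthfd2 probe sets were annotated to Mthfd2 and Gsn together and are given separately, and no probe set was annotated to Pycr1. RNA came from livers of male mice on Affymetrix arrays, 31 in all, in 8 groups of 4 biological replicates, except that untreated Ire1 ko had 3.

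The first experiment compared Xbp1 ko mice with their WT littermates, all labelled C57BL/6, 14 weeks old and fed. The second gave Xbp1 ko mice of 9 weeks an injection of luciferase siRNA or IRE1 siRNA and collected liver after 8 days, so loss of Xbp1 was shared by both arms. The third crossed genotype, WT against Ire1 ko, with no treatment or 2 mg/kg tunicamycin for 6 h at 14 weeks. Ire1 ko mice were labelled as a mixed strain and WT mice of that experiment as C57BL/6, so strain and genotype cannot be told apart. The labels do not say in which cells the genes were deleted or by which Cre.

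Xbp1 intensity was 470 on average in Xbp1 ko and 944 in WT littermates, a log2 difference of -1.01 (SE 0.14, n = 4 and 4; limma adjusted p = 0.00872). The Ern1 probe set (Ern1 encodes IRE1) gave a log2 difference of 0.04 between untreated Ire1 ko and WT (95% CI -0.36 to 0.44), and under tunicamycin it was higher in Ire1 ko, at 270 to 467 against 212 to 304 in WT (log2 0.55; adjusted p = 0.0371). This probe set did not bear out the knockout label, and whether it lies outside the deleted part is not given in the sources used here, so each direction between Ire1 ko and WT rests on the labels. On the arrays labelled IRE1 siRNA the Ern1 probe set read 169 to 236, against 18 to 35 on the arrays labelled luciferase siRNA, which goes against the labels. The siRNA groups are therefore named by their labels, and each direction drawn from them turns round if the labels were exchanged. In untreated Ire1 ko, replicate 2 stood apart at Ddit3, with an intensity of 117 against 14 and 16.

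Liver identity was checked on hepatocyte markers, of which all 10 were measured: Alb read 7959 to 10838 over the arrays. In WT, some markers of several cell types passed the tunicamycin test, where 18.5% of all genes were higher and 17.6% lower. No set test was run, so the counts below are not read as a shift of a cell type. The summed intensity of 11 Kupffer cell markers was 779 to 1615 in untreated and 565 to 770 in treated WT, with 3 of the 11 lower by the test. The corresponding sums over 10 hepatocyte markers were 38245 to 41243 and 36150 to 36339, with 1 marker higher and 4 lower. Over 10 endothelial markers they were 535 to 691 and 415 to 533, with 1 higher and 3 lower. Over 10 stellate markers they were 513 to 691 and 498 to 662, with 2 of 9 tested lower. Of 4 erythroid markers 1 was lower, and no cholangiocyte, lymphocyte or neutrophil marker passed the test. In Ire1 ko no Kupffer marker passed, with sums of 758 to 2503 untreated and 827 to 1194 treated. Markers of other cell types passed there too. Of the hepatocyte markers 2 were higher and 1 lower, and of the endothelial markers 1 was higher and 1 lower. Of the stellate and the erythroid markers 1 each was lower. Over all genes 17.4% were higher and 10.3% lower in Ire1 ko. Hepatocyte sums in Ire1 ko were 36229 to 41181 untreated and 38514 to 40928 treated, the latter above those of treated WT. Between the treated genotypes 1 hepatocyte marker was higher in Ire1 ko and 0 lower, beside 9.68% and 8.5% of all genes. No marker of the other cell types passed that comparison. The part of these marker changes in the enzyme results was not tested.

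Phgdh, Psat1 and Psph carry 3-phosphoglycerate to serine in successive steps. Shmt2 and Mthfd2 move a carbon from serine onto folate in mitochondria, Asns makes asparagine from aspartate, Aldh18a1 and Pycr1 act first and last in proline synthesis from glutamate, and Cth releases cysteine from cystathionine. Many of these genes are known targets of ATF4, the transcription factor whose translation rises when PERK or another kinase phosphorylates eIF2α. Tunicamycin blocks N-glycosylation and so brings misfolded glycoproteins to the endoplasmic reticulum, where IRE1, PERK and ATF6 act as sensors; IRE1 splices the Xbp1 mRNA.

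ATF4 is known to act through the C/EBP-ATF response element. Promoters are shown for Asns and Pycr1, whose windows held it, and for Psat1 and Aldh18a1, whose responses to tunicamycin differed between the genotypes. RefSeq windows on GRCm38.p6, from 250 bases before to 50 after each start, were found for 8 of the 9 genes, in 9 windows since Psat1 had a pair. Bases before the start are printed 5′ to 3′ on the gene's strand, which is the minus strand for each, and capitals mark the element. For Asns, Aldh18a1 and 1 Psat1 window all 250 bases before the start are shown. For Pycr1 only 60 bases around the element are shown, and its element lies 103 to 96 bases before the start.
Asns, chr6:7693210-7693459: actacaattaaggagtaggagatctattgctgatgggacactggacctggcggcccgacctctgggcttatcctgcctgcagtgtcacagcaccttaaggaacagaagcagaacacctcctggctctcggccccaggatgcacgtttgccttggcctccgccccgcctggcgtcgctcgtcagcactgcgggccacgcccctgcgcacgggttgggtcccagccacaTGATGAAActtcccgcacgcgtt
Pycr1, chr11:120643818-120643877: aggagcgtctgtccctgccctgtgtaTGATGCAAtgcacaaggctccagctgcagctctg
Psat1, chr19:15925060-15925309: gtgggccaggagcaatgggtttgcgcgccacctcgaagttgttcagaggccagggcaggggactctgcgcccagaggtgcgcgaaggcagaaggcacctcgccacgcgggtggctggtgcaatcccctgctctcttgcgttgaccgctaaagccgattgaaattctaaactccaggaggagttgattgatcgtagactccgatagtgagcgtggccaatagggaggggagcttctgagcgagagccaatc
Aldh18a1, chr19:40588464-40588713: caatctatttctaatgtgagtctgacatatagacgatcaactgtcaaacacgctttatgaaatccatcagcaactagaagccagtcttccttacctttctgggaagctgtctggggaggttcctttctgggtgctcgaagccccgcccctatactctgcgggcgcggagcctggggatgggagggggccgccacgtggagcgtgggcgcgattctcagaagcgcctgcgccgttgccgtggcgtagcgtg
The element was searched as TGATGNAA on both strands (TTNCATCA on the other) and was found in the windows of 2 members, Asns and Pycr1. All RefSeq windows of the same length, 32851 in number, held it in 3.97%. The Psat1 and Aldh18a1 windows did not hold these letters. The cyclic AMP response element TGACGTCA (1.79% of all windows), the unfolded protein response element core TGACGTGG (0.676%) and the ER stress response element ERSE (0.119%) were in none of the 9 windows. These matches are descriptions of letters, not of binding.

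**Figure D1:**
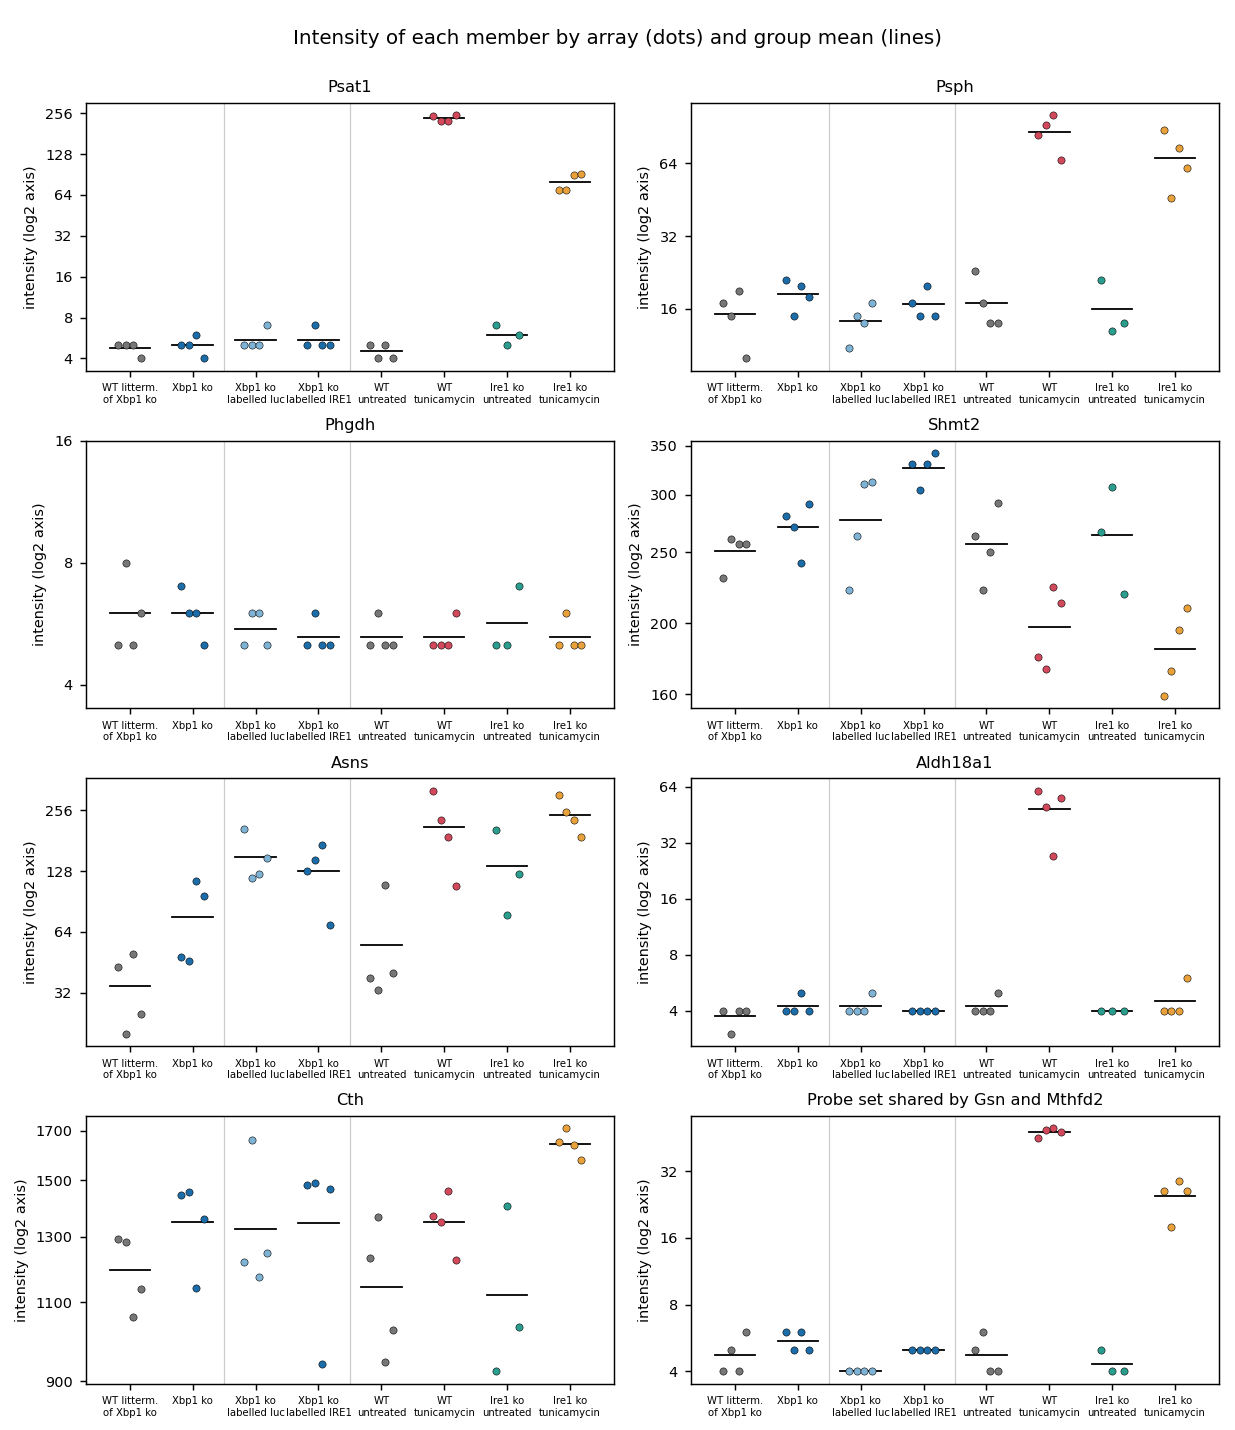
Intensity of the 7 measured enzymes and of the brighter probe set shared by Gsn and Mthfd2, on a log2 axis, in each of the 31 arrays by group; each point is 1 array and each line a group mean. Psat1 lay at 4 to 7 in every group without tunicamycin, at 223 to 247 in treated WT and at 70 to 92 in treated Ire1 ko, while Aldh18a1 left 3 to 6 in treated WT alone.

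Tunicamycin raised serine synthesis enzymes in WT liver, most of all Psat1. Psat1, the aminotransferase of the pathway's middle step, read 5, 4, 5 and 4 in untreated WT and 243, 224, 223 and 247 after tunicamycin. All treated arrays were far above all untreated ones, and the untreated values lay at the lower end of the scale, whose array median was 5. The log2 change was 5.71 (SE 0.14, n = 4 and 4; limma adjusted p = 1.05e-13 over 15172 genes tested). Its size is set by the floor on the untreated side, being 3.61 on log2(intensity + 16). Psph, the phosphatase of the last step, read 23, 17, 14 and 14 untreated and 84, 92, 101 and 66 treated. The groups did not overlap, and Psph rose by a log2 of 2.35 (SE 0.22; adjusted p = 2.72e-07). Phgdh, the dehydrogenase of the first step, read 5 to 8 on every array of the study. It stayed near the floor in all 8 groups, so this probe set gave no measured level in which a change could be read. In these bulk livers, fewer cells of a type and less RNA per cell cannot be told apart.

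Asns and Aldh18a1 also rose in WT, while Shmt2 fell. Asns read 38, 33, 109 and 40 in untreated WT and 321, 229, 189 and 108 after tunicamycin. One treated array lay just below the highest untreated one, and the rise was 2.03 on the log2 scale (SE 0.38; adjusted p = 0.000412). Aldh18a1, the enzyme that reduces glutamate toward proline, read 4.25 on average in untreated WT and 61, 50, 27 and 56 in treated WT. The groups were apart and the log2 rise was 3.45 (SE 0.21; adjusted p = 1.77e-09), or 1.64 on log2(intensity + 16). Aldh18a1 passed the filter on dim genes only through the treated WT arrays, so its being tested was not independent of its rise. Shmt2, the mitochondrial serine hydroxymethyltransferase, read 263, 222, 250 and 292 untreated and 180, 173, 224 and 213 treated. The groups overlapped at 1 array each, and the log2 change was -0.38 (SE 0.13; adjusted p = 0.0302). That call was lost when untreated replicate 1 or 4 or treated replicate 1 or 2 was left out. The log2 changes were then -0.37, -0.32, -0.34 and -0.32, with adjusted p of 0.0672, 0.0966, 0.0864 and 0.0948. The other Shmt2 probe sets read 8 or less on every array, near the floor. In WT they changed by -0.27 and -0.25 (limma adjusted p = 0.156 and 0.0855 over all probe sets tested). In Ire1 ko they changed by -0.12 and -0.42 (adjusted p = 0.663 and 0.012). Cth, the last enzyme of transsulfuration, read 945 to 1367 untreated and 1225 to 1459 treated, a log2 difference of 0.25 (SE 0.12; adjusted p = 0.128) that passed the test only without untreated replicate 2 (0.35; adjusted p = 0.0423).

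Of the 7 measured enzymes, 4 thus rose and 1 fell in WT, with Aldh18a1 among the 4 under the filter limit given above. Over all genes tested, 18.5% were higher and 17.6% lower by the same rule, and the median log2 change was 2.03 for the enzymes and -0.02 for all genes. Scaling the arrays to a common median of the brighter probe sets moved the median of all genes to -0.14 in WT and from 0 to -0.18 in Ire1 ko. That scaling also moved the share of called genes that were higher from 51.2% to 37.4% in WT and from 62.7% to 35.7% in Ire1 ko; a second quantile normalization gave 44.3% in WT and 48.0% in Ire1 ko. Under both scalings the directions of the called enzymes were the same as in the deposited values.

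In Ire1 ko liver tunicamycin raised Psat1, Psph and Cth, and Shmt2 fell. Psat1 read 7, 5 and 6 untreated and 70, 70, 89 and 92 treated. The groups did not overlap, and the log2 rise was 3.74 (SE 0.15, n = 4 and 3; adjusted p = 9.86e-11), or 2.12 on log2(intensity + 16). Psph read 21, 13 and 14 untreated and 88, 46, 74 and 61 treated, a log2 rise of 2.06 (SE 0.24; adjusted p = 6.23e-06), or 1.36 with the offset. Cth read 923, 1403 and 1034 untreated and 1651, 1711, 1640 and 1580 treated. All treated arrays exceeded all untreated ones, with a log2 rise of 0.58 (SE 0.13; adjusted p = 0.00326).

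Shmt2 fell in Ire1 ko, from 267, 307 and 219 to 159, 172, 196 and 210, a log2 change of -0.52 (SE 0.14; adjusted p = 0.0106). The groups were apart, but without untreated replicate 2, the array with the higher Ddit3, the change was -0.40 (adjusted p = 0.0707). Asns read 205, 78 and 124 untreated and 306, 251, 229 and 188 treated, a log2 difference of 0.93 (SE 0.41; adjusted p = 0.113), and it passed without untreated replicate 1 (1.29; adjusted p = 0.0455). Aldh18a1 read 4 on each untreated array and 4, 4, 4 and 6 on the treated ones, so the strong signal of treated WT had no counterpart there. Of the 7 enzymes, 3 were higher and 1 lower in Ire1 ko, beside 17.4% and 10.3% of all genes tested, with a median log2 change of 0.58 against 0 for all genes.

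**Figure D2:**
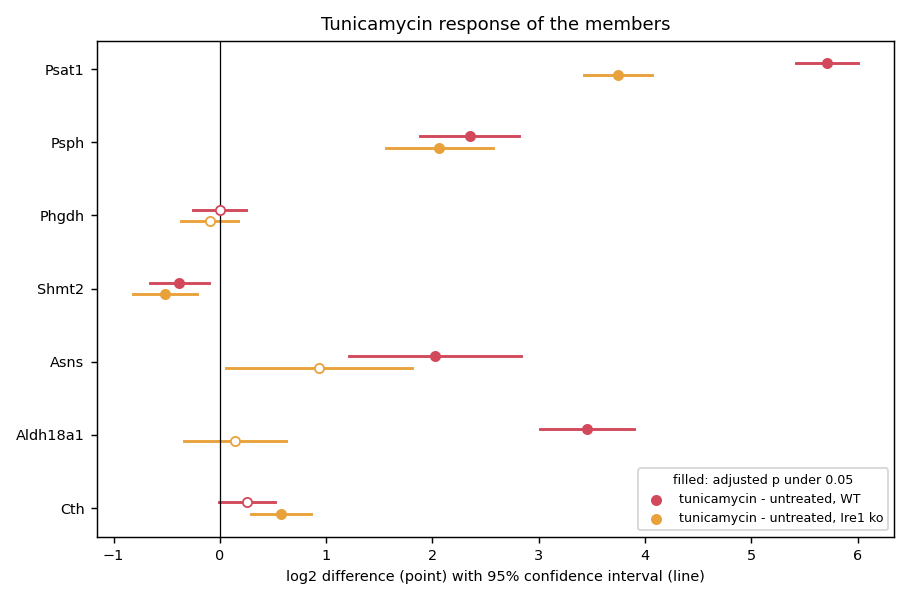
Log2 difference between tunicamycin and untreated arrays for each enzyme in WT and in Ire1 ko, with 95% confidence intervals from limma; filled points have an adjusted p under 0.05. The intervals of Psat1 and Aldh18a1 are apart between the genotypes, at 5.71 and 3.74 for Psat1 and at 3.45 and 0.15 for Aldh18a1.

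The response to tunicamycin was smaller in Ire1 ko than in WT for Psat1 and Aldh18a1. Under tunicamycin, Psat1 averaged 80.2 ± 11.9 (SD, n = 4) in Ire1 ko and 234.2 ± 12.5 (SD, n = 4) in WT, a log2 difference of -1.56 (SE 0.14; adjusted p = 4.38e-07), and every Ire1 ko array was below every WT array. The difference between its 2 responses, the interaction term, was -1.97 (SE 0.20, limma adjusted p = 1.42e-05). Its untreated arrays lay near the floor, and on log2(intensity + 16) the interaction was -1.49. Aldh18a1 averaged 4.5 ± 1.0 (SD, n = 4) in treated Ire1 ko and 48.5 ± 15 (SD, n = 4) in treated WT. Its log2 difference was -3.39 (SE 0.21; adjusted p = 6.2e-09) and its interaction -3.31 (SE 0.31; adjusted p = 5.56e-06). Every Aldh18a1 group but treated WT lay at the floor, so these sizes measure the distance of treated WT from the floor. With the offset of 16 they were -1.62 and -1.60. Aldh18a1 passed the filter on 4 of 4 treated WT arrays and on 0 to 1 array of each other group. Its being tested here, and so both p-values, were not independent of the high treated WT values. The other Aldh18a1 probe set read 7 to 14 in treated WT and 5 on each treated Ire1 ko array, with an interaction of -1.19 (adjusted p = 0.00603 over all probe sets tested).

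For the other enzymes the interaction did not pass the test. Psph read 46 to 88 in treated Ire1 ko and 66 to 101 in treated WT, and its interaction was -0.28 (95% CI -0.97 to 0.41; adjusted p = 0.736). For Asns, whose values were the most scattered, the interaction was -1.09 (95% CI -2.28 to 0.10; adjusted p = 0.31), and under tunicamycin Ire1 ko and WT differed by 0.28 (95% CI -0.52 to 1.09). These intervals do not show that the genotypes respond alike. Cth was higher on all treated Ire1 ko arrays than on all treated WT arrays, by a log2 of 0.29 (95% CI 0.03 to 0.55), with an adjusted p of 0.132. For Shmt2 the interaction was -0.14 (95% CI -0.54 to 0.27). In both the comparison under tunicamycin and the interaction, 2 of the 7 enzymes were lower and 0 higher. These were Psat1 and Aldh18a1, of which Aldh18a1 passed the filter only through the treated WT arrays. Over all genes, 8.5% were lower and 9.68% higher under tunicamycin, and 3.95% and 3.58% by the interaction.

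**Figure D3:**
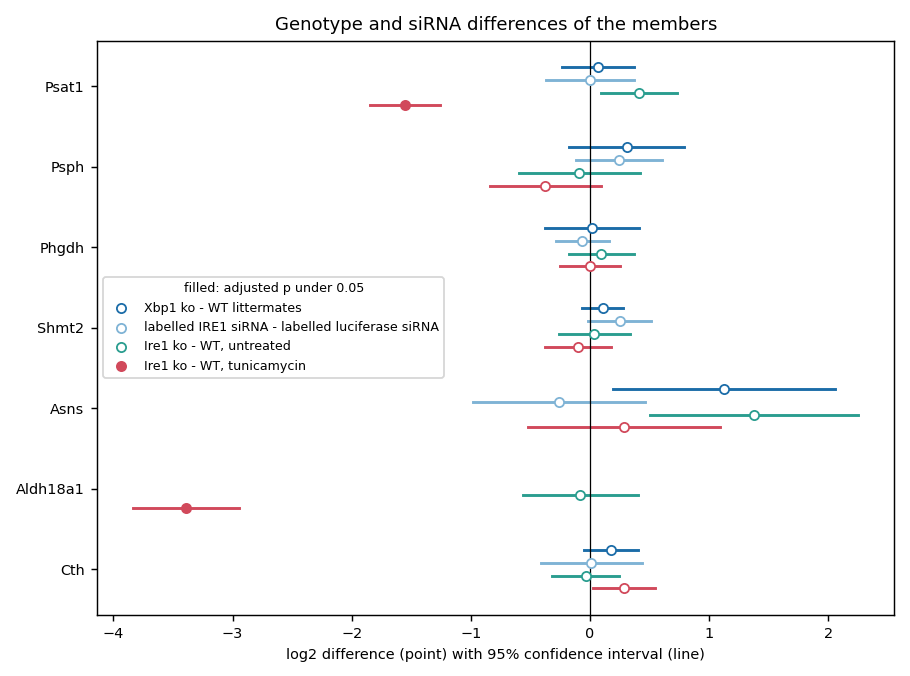
Log2 differences with 95% confidence intervals for each tested enzyme in the comparisons that do not set tunicamycin against no treatment: Xbp1 ko against WT littermates, arrays labelled IRE1 siRNA against luciferase siRNA, and Ire1 ko against WT without and with tunicamycin. Filled points, Psat1 at -1.56 and Aldh18a1 at -3.39 in treated Ire1 ko, have an adjusted p under 0.05.

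The 2 probe sets shared by Gsn and Mthfd2 rose under tunicamycin in both genotypes. Mthfd2 is the mitochondrial dehydrogenase that follows Shmt2, and Gsn encodes the actin-severing protein gelsolin, so neither gene can be credited with the signal from the annotation. The brighter probe set read 5, 6, 4 and 4 in untreated WT and 45, 49, 50 and 48 in treated WT, and 5, 4 and 4 in untreated and 26, 18, 29 and 26 in treated Ire1 ko. Treated arrays were above untreated ones in both genotypes, and treated WT was above treated Ire1 ko throughout. Tested among 36948 probe sets, it rose by a log2 of 3.36 in WT (SE 0.16; adjusted p = 9.1e-11) and 2.50 in Ire1 ko (SE 0.17; adjusted p = 2.49e-08), and the interaction was -0.86 (SE 0.23; adjusted p = 0.0439). The other shared probe set rose by 2.32 and 1.37, with an interaction of -0.95 (adjusted p = 0.0525). The brightest probe set annotated to Gsn alone averaged 12.5 in untreated and 12.8 in treated WT, and 10.3 and 11.5 in Ire1 ko.

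Without tunicamycin, 0 of the 7 enzymes passed the limma test between Ire1 ko and WT, beside 0.943% of all genes called. At an unadjusted p under 0.05 there were 2, Asns and Psat1. Asns averaged 136 in untreated Ire1 ko and 55.0 in untreated WT, the 10th highest of all log2 differences at 1.38 (SE 0.41, n = 3 and 4; adjusted p = 0.181), with overlapping groups. Without WT untreated replicate 3, the array at 109, it was 1.77 and passed the test (adjusted p = 0.0319). Psat1 differed by 0.41 (SE 0.15; adjusted p = 0.348) between whole-number intensities of 4 to 7. Of the calls in this comparison over all genes, 8.39% were higher, and 22.1% with the common median scaling.

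No enzyme passed the test in Xbp1 ko. Of 6 tested, Aldh18a1 having stayed at the floor, 0 passed the limma test, beside 2.71% of all genes, and 1 had an unadjusted p under 0.05. That gene was Asns, which read 43, 20, 50 and 25 in WT littermates and 48, 46, 115 and 96 in Xbp1 ko. Its groups overlapped, and the log2 difference was 1.13 (SE 0.41, n = 4 and 4; adjusted p = 0.247), the 25th highest of 14008 genes tested. With arrays scaled to a common median it was 1.11 and passed the test (adjusted p = 0.0417). Psph read 10 to 19 in WT littermates and 15 to 21 in Xbp1 ko (0.31, 95% CI -0.18 to 0.79), Shmt2 231 to 261 and 242 to 291 (0.11, 95% CI -0.07 to 0.28), and Cth 1060 to 1292 and 1141 to 1456 (0.18, 95% CI -0.05 to 0.40).

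In Xbp1 ko mice no difference between the siRNA arms passed the test at these enzymes: 0 of 6 were called by limma and 0 had an unadjusted p under 0.05, beside 1.79% of all genes called. The higher share among those calls was 36.3%, 25.5% after a second quantile normalization and 15.3% with the common median scaling. Shmt2 came nearest, at 222, 263, 310 and 312 on the arrays labelled luciferase siRNA and 330, 304, 330 and 342 on those labelled IRE1 siRNA. The groups overlapped and the log2 difference was 0.25 (SE 0.11; adjusted p = 0.376). Asns read 208, 119, 124 and 149 against 128, 146, 172 and 69, a difference of -0.26 (95% CI -0.98 to 0.46). Psph differed by 0.24 (95% CI -0.12 to 0.60) and Cth by 0.01 (95% CI -0.41 to 0.43). The brighter probe set of Gsn and Mthfd2 was 4 on each array labelled luciferase siRNA and 5 on each labelled IRE1 siRNA, a single rounding step at the floor that the probe set test called (adjusted p = 0.00115).

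Asns also varied between groups that had no tunicamycin. Its group means ran from 34.5 in WT littermates of Xbp1 ko through 55.0 in untreated WT, 76.2 in Xbp1 ko, 129 on arrays labelled IRE1 siRNA, 136 in untreated Ire1 ko and 150 on arrays labelled luciferase siRNA to 212 and 244 in treated WT and Ire1 ko. Each neighbouring pair in this order had overlapping arrays. The standard deviation within groups averaged 0.59 on the log2 scale for Asns and 0.16 to 0.31 for the other enzymes. Experiments differ in age, treatment and strain label, so levels set side by side across them are no comparison.

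The other genes of the surrounding pathways were read from the same fit, and rises under tunicamycin were fewer there than falls in WT for 4 of the 5 lists. Over all genes, tunicamycin raised 18.5% and lowered 17.6% in WT, and raised 17.4% and lowered 10.3% in Ire1 ko. These shares stand beside each tunicamycin count of the lists, which were chosen with earlier results of these data known. Of 16 measured genes of folate one-carbon metabolism and glycine cleavage, 4 rose and 7 fell in WT (median log2 -0.18), and 3 rose and 2 fell in Ire1 ko (median -0.09). In WT the glycine decarboxylase Gldc changed by -2.73, the cytosolic serine hydroxymethyltransferase Shmt1 by -2.65, the mitochondrial formyltetrahydrofolate dehydrogenase Aldh1l2 by 1.67 and the methionine synthase reductase Mtrr by 1.64. In Ire1 ko the leading changes were -1.81 for Gldc, 1.73 for the folylpolyglutamate synthase Fpgs, 1.64 for Mtrr and -1.13 for Mthfd1. Shmt1 was scattered there, at 310, 61 and 376 untreated and 63, 69, 330 and 323 treated, so its response in Ire1 ko could not be read.

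Aldh1l2 left the floor in treated WT alone. It read 15, 27, 8 and 10 in treated WT and 5, 4, 5 and 4 in treated Ire1 ko, and 4 to 5 in both without treatment. The groups under tunicamycin did not overlap, with a log2 difference of -1.58 (adjusted p = 0.000355) and an interaction of -1.72 (adjusted p = 0.0112). The other groups lay at the floor. In the third experiment the filter was passed on 4 of 4 treated WT arrays but on 1 to 2 arrays of each other group. These sizes therefore measure only how far treated WT stood above the floor. In the same list 4 genes were higher in treated Ire1 ko than in treated WT, and Aldh1l2 was the 1 that was lower. Over all genes 9.68% were higher and 8.5% lower.

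In the list named serine and glycine breakdown, most measured genes were lower after tunicamycin in WT, beside 17.6% of all genes. Of its 10 genes 7 were measured, and Sds, Sdsl and Tdh were not. The list also holds enzymes that act on glycerate, sarcosine or dimethylglycine, so its counts do not measure the breakdown of serine or glycine. Of 7 measured, 0 rose and 6 fell in WT (median log2 -0.66), led by the glycerate kinase Glyctk at -1.77, the pipecolate and sarcosine oxidase Pipox at -0.98, the dimethylglycine dehydrogenase Dmgdh at -0.75 and the serine racemase Srr at -0.66. In Ire1 ko 4 of the 7 fell (median -0.37), with Glyctk at -2.12, and the interaction passed for 0 of them and had an unadjusted p under 0.05 for 0. Around Cth, of 14 genes of the methionine cycle and transsulfuration 1 rose and 6 fell in WT (median -0.28), and 3 rose and 5 fell in Ire1 ko (median 0.09). Both genotypes had lower Csad, which makes taurine's precursor (-1.80 in WT, -1.28 in Ire1 ko), and lower Gclc, the catalytic subunit for glutathione synthesis (-1.53 and -0.96). Under tunicamycin 6 of the 14 were higher in Ire1 ko than in WT and 0 lower, beside 9.68% and 8.5% of all genes, among them Csad by 1.18 and Gclc by 1.05, but the interaction passed for 0 and had an unadjusted p under 0.05 for 5.

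Of 11 genes that supply or use glutamate, aspartate and proline, 2 rose and 4 fell in WT (median log2 -0.11). In Ire1 ko 2 rose and 3 fell (median -0.08). Over all genes the shares that rose and fell were 18.5% and 17.6% in WT, and 17.4% and 10.3% in Ire1 ko. The asparaginase Aspg fell in both, with values of -1.61 and -1.77, as did the proline-breakdown enzyme Aldh4a1, with -1.15 and -1.18. The alanine aminotransferase Gpt2 averaged 506 and 684 in untreated and treated WT, and 490 and 1327 in Ire1 ko. Its interaction was 0.99 (adjusted p = 0.0135), opposite in sign to those of Psat1 and Aldh18a1. That of the proline dehydrogenase Prodh was 0.64 (adjusted p = 0.0382), but its adjusted p ran up to 0.108 as single arrays of all 4 groups were left out. In Xbp1 ko the glutamate dehydrogenase Glud1 was higher by 0.38 (adjusted p = 0.000471) and Got2 by 0.17 (adjusted p = 0.033).

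**Figure D4:**
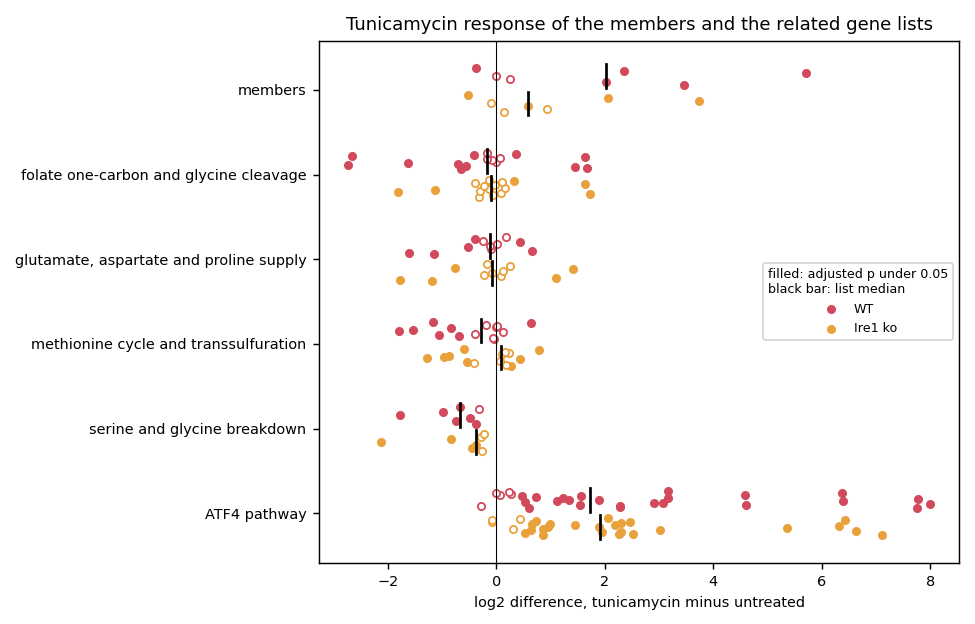
Log2 change under tunicamycin in WT and in Ire1 ko for the enzymes and for the genes of 5 pathway lists, each point 1 gene and each black bar a list's median. Genes of the ATF4 pathway lie mostly above 0, with medians of 1.73 and 1.92. The measured genes of the list named serine and glycine breakdown lie below, with medians of -0.66 and -0.37.

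The ATF4 pathway itself responded in both genotypes. Of 28 measured genes 23 rose in WT (median log2 1.73) and 24 in Ire1 ko (median 1.92), beside 18.5% and 17.4% of all genes. By the adjusted test 0 fell in either genotype, beside 17.6% and 10.3% of all genes. At an unadjusted p under 0.05, 1 was lower in WT and 0 in Ire1 ko. The list was chosen with earlier results of these data known. Atf4 averaged 299 in untreated and 1460 in treated WT, and 192 and 899 in Ire1 ko. Its log2 rise was 2.28 (SE 0.13) in WT and 2.26 (SE 0.14) in Ire1 ko, and the interaction was -0.02 (95% CI -0.42 to 0.37; adjusted p = 0.962). Atf4 was lower in Ire1 ko without treatment (log2 -0.67; adjusted p = 0.0228), a call lost when any of 5 untreated arrays was left out (adjusted p up to 0.135), and under tunicamycin (-0.69; adjusted p = 0.000808).

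Ddit3, which encodes CHOP, rose by 8.00 in WT and 6.63 in Ire1 ko, with an interaction of -1.37 (adjusted p = 0.274). Without untreated Ire1 ko replicate 2, the array at 117, the rise in Ire1 ko was 7.62 and the interaction -0.38 (adjusted p = 0.348). Trib3, a pseudokinase induced with it, rose by 6.38 and 6.43, with an interaction of 0.05 (adjusted p = 0.951). Under tunicamycin 8 of the 28 genes were lower in Ire1 ko than in WT and 1 higher, beside 8.5% and 9.68% of all genes. The interaction was lower for 4 and higher for 2 of the 28, beside 3.95% and 3.58% of all genes. The 4 were Eif2ak3, which encodes PERK (-2.43; adjusted p = 3.89e-06), the glutathione-degrading Chac1 (-2.30; adjusted p = 4.64e-05), the cationic amino acid transporter Slc7a1 (-2.12; adjusted p = 0.00224) and the tryptophanyl-tRNA synthetase Wars (-1.12; adjusted p = 0.000425). The 2 were the transcription factor Cebpb (0.81; adjusted p = 0.00542) and the amino acid transporter subunit Slc3a2 (0.74; adjusted p = 0.0227), whose call was lost without untreated Ire1 ko replicate 2 (0.68; adjusted p = 0.0635) or 3 (0.63; adjusted p = 0.065). On the arrays labelled IRE1 siRNA 3 of 26 tested genes were higher, led by Slc3a2 (0.95, limma adjusted p = 0.00523), beside 1.79% of all genes called. In untreated Ire1 ko 3 of 28 were lower, beside 0.943% of all genes called. These were Atf4, Slc3a2 (-0.65), whose adjusted p ran up to 0.154 as arrays were left out, and Nars (-0.47). In Xbp1 ko 0 of 26 passed, beside 2.71% of all genes called, with 3 higher and 1 lower at an unadjusted p under 0.05.

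The genes most like the enzymes were sought among 6605 genes with a group mean of 16 or more, by Pearson correlation over the 8 group means of log2 intensity. These points share the tunicamycin arrays, which carry most of the variation, and they come from experiments that differ in age, treatment and strain label. The mean profile was not scaled by enzyme. Psat1, with the widest range, therefore weighed most in it, and Phgdh, near the floor, weighed little. The mean profile of the 7 enzymes was closest to Ints6 (r = 0.996), Zcchc7 (0.993), Nup98 (0.992), D16Ertd472e (0.992), 4932443L11Rik (0.990), Per1 (0.989), Blzf1 (0.988), Trmt2a (0.988), Riok1 (0.988) and Zbtb11 (0.987). Per1, a circadian repressor, averaged 148 in treated WT and 59.5 in treated Ire1 ko, against 17.0 to 29.0 in the groups without tunicamycin.

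For single enzymes the closest gene was Polr1e for Psat1 (r = 0.997), Cdc73 for Psph (0.998), Spc24 for Shmt2 (0.993), Mdh2 for Asns (0.964), Rpl32 for Cth (0.989) and Mpv17 for Phgdh (0.943), whose own values lay at the floor. Aldh18a1 was closest to Kctd14 (r = 0.999), which averaged 36.2 in treated WT, 4.5 in treated Ire1 ko and 4.0 to 4.5 in every other group. Among the enzymes, Psat1 and Psph had an r of 0.987 over the group means, Psat1 and Shmt2 one of -0.85, and Psat1 and Aldh18a1 one of 0.80.

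Within groups, no pair of enzymes passed the test for varying together from array to array. Phgdh throughout, Psat1 without tunicamycin and Aldh18a1 outside treated WT lay at the floor, where deviations are whole-number steps. Pairs with these enzymes had little signal to vary together, so the test cannot decide for them. Over 31 arrays with group means removed, 0 of 21 pairs passed a permutation test after Benjamini-Hochberg adjustment, and 5 had an unadjusted p under 0.05. The strongest was Asns with Cth (Pearson r = -0.53, permutation p = 0.0111, adjusted p = 0.194; Spearman rho = -0.49, permutation p = 0.0173, adjusted p = 0.182), and r was -0.56 without the 2 arrays farthest from the median of Asns. The median r over the 21 pairs was -0.02, beside 0.08 over pairs of 5834 genes with a mean intensity of 16 or more. Phgdh and Aldh18a1, at means of 5.52 and 9.87 over all arrays, did not reach that intensity, so the medians are not like for like.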

How the data were processed

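The authors deposited linear intensity values of 45037 probe sets on 31 arrays, rounded to whole numbers, made with RMA in the affy package per the submitters' processing notes; versions are not given in the sources used here. The lowest value was 3, the median of each array 5, and 66.2% of values were at or under 6, so changes that start at the floor are understated and rounding sets steps there. RMA gives no count or depth, and the number of arrays limits the precision. The platform annotation gave 28898 probe sets 1 gene symbol, 551 several and 15588 none; only those with 1 were used, the brightest per gene.

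Intensities were log2-transformed and tested with limma 3.58.1 (lmFit, then eBayes with an intensity trend) in R 4.3.3, two-sided, with Benjamini-Hochberg adjustment over all genes tested at a threshold of 0.05. Each of the 3 experiments had its own fit, and the 4 groups of the third shared one estimate of spread. Genes were tested if above the array's 30th percentile on at least 3 arrays of the fit. Fold changes are on the log2(intensity) scale. The labels call the arrays biological replicates. The limma p-values set each group difference against the spread between replicates, pooled over the groups of a fit and moderated across genes. The procedure was tested on simulated data.

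The members and the lists were chosen with earlier results of these data known. All members were named in each comparison, Atf4, Ddit3 and Trib3 as context, Xbp1 and Ern1 as checks of the labels, and from each list at most 4 called genes with the largest log2 change; Aldh1l2, Csad and Gclc are also named where they repeat across comparisons. Tests of single probe sets, and the context and pathway genes with arrays left out, were added after seeing the data. Permutation tests drew 100000 resamples within groups. Alternatives were another filter, none, an offset of 16, other scalings, all probe sets averaged, a fit over all arrays, no trend, the replicate number as a block and each array left out. Same-numbered arrays had deviations correlating between -0.18 and 0.29 over 29 pairs, so the numbers were not taken to pair the arrays.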

Additional observations from a re-analysis of the deposited data

Results flagged for a closer look

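The response to tunicamycin differed between the genotypes by the interaction term for Psat1 (-1.97 on the log2 scale) and for Aldh18a1 (-3.31).

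In 48 groups of 4 arrays, the gap from the most extreme array to its nearest neighbour was divided by the group's range, and 16 exceeded Dixon's 95% critical value; chance alone passes about 1 group in 20. In 12 of these the ratio was 1 because 3 arrays shared a whole number near the floor. These were Psat1 in WT littermates of Xbp1 ko and on the arrays labelled luciferase siRNA and IRE1 siRNA, Phgdh on the arrays labelled IRE1 siRNA, in untreated WT and in treated WT and Ire1 ko, and Aldh18a1 in WT littermates, Xbp1 ko, the arrays labelled luciferase siRNA, untreated WT and treated Ire1 ko. Asns in untreated WT had a ratio of 0.908, with replicate 3 at 109 and the others at 33 to 40. Shmt2 in WT littermates had 0.867, with replicate 1 at 231 and the others at 257 to 261. Cth had 0.849 on the arrays labelled luciferase siRNA, with replicate 2 at 1663, and 0.958 on those labelled IRE1 siRNA, with replicate 3 at 940.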

How the results depend on the processing

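Psat1, Psph and Aldh18a1 in WT, Psat1, Psph and Cth in Ire1 ko, and both interactions kept their direction and their call under each alternative run, as did Asns in WT. No enzyme's change reversed a call. The count of called enzymes was 1 in place of 0 for Xbp1 ko with the common median scaling (Asns), and 0 to 1 for untreated Ire1 ko when arrays were left out. With arrays left out it was 4 to 6 in treated WT and 3 to 5 in treated Ire1 ko. With the replicate number as a block it was 5 in WT and 5 in Ire1 ko, where Asns was then called (1.10, adjusted p = 0.0397); no other enzyme's call changed with the block. Over all genes the block gave 197 calls in place of 380 for Xbp1 ko and 43 in place of 251 for the siRNA arms. One fit of all arrays gave 571 for Xbp1 ko, leaving out WT littermate replicate 1 gave 237, a filter at 16 gave 397 for siRNA, and leaving out untreated Ire1 ko replicate 3 gave 95 in place of 143 for untreated Ire1 ko. Counts of the pathway lists changed by over 1.5 times in 45 of 315 other settings and in 52 of 455 with an array left out; the cause was not tested. Phgdh, and Aldh18a1 outside treated WT, lay at the floor, where signal limits what can be read.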
